A study of Mus musculus with 12 samples.

Results

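The genes described here are 29 immediate early genes and 9 heat shock genes of the mouse. They were taken by symbol from a list of 38 names, and all 38 were found among the 48795 gene identifiers counted. All 38 passed the filter on low counts, which left 15270 genes to test, and the list was drawn up with earlier results of these data known.

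Immediate early genes are transcribed within minutes of a growth factor, cytokine, stretch or stress signal, because the factors that switch them on, such as SRF with its ternary complex partners and CREB, already wait on the DNA. Many of their products are transcription factors (FOS, JUN, EGR and NR4A proteins), and others end the response by taking phosphates off kinases or by destroying short-lived mRNA. Heat shock genes encode chaperones that refold proteins and are driven by HSF1. Both kinds of gene are known to be induced when solid tissue, prostate included, is cut and digested to free its cells.

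RNA was measured in 12 libraries from prostates of wild type mice of strain C57BL/6, 6 to 8 weeks of age. No treatment or transgene is named in the labels. Cells lacking CD31, CD45 and Ter119, the surface markers of endothelium, leukocytes and red cells, were sorted into 6 populations: LY6D+ SCA1high, LY6D+ SCA1int (intermediate), LY6D+ SCA1low, LY6D- SCA1high, LY6D- SCA1int and LY6D- SCA1low. Each population has 2 libraries, called replicates 1 and 2, and whether these were single animals or pools is not stated. The p-values below judge differences against the spread between replicate libraries, estimated over all 6 populations together. That spread may be technical in part. The test also drew the spread of each gene toward that of other genes. The p-values and SEs of a gene thus do not rest on its own replicates alone. No library was taken without the dissociation and sorting steps, so the level of these genes in undisturbed tissue was not measured.

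Library totals ran from 8436185 to 20022077 counts, with 7512 to 12202 genes at 10 or more counts. Levels are in CPM, counts divided by the library's total after TMM scaling, given as mean ± SD of n = 2 where a population is meant. Each count is a tag from the 3' end of an mRNA. Luminal keratins were present in every population, with Krt8 at population means of 75.8 to 207 CPM and Krt18 at 108 to 408. Markers of other cells were present too. The 12 endothelial markers summed to 3935 ± 384 CPM in LY6D- SCA1high and 1308 ± 294 in LY6D- SCA1int, against 84.4 to 532 in the other populations, although cells with CD31, the product of Pecam1, were gated out. Pecam1 itself stood at 487 ± 122 CPM in LY6D- SCA1high and Cdh5 at 131 ± 43.7. For LY6D, edgeR called 8 of the 12 endothelial markers lower in LY6D+ cells and 7 of the 10 basal markers higher. Of all tested genes, 2.48% were called. The basal markers summed to between 3060 and 4679 CPM in the 3 LY6D+ populations and between 303 and 2011 in the 3 LY6D- populations. Leukocyte markers were low, with population sums of 5.67 to 146 CPM, and Ptprc, the gene of CD45, had a mean of at most 0.108 CPM in any population. The 11 fibroblast and smooth muscle markers summed to 1063 ± 338 CPM in LY6D+ SCA1high and 278 to 904 in the others. Their median log2 fold change for SCA1high against SCA1low, averaged over LY6D, was 2.93, against 0.15 for all tested genes. Of the 10 tested, 0 were called in that comparison.

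A pair of libraries stood apart. LY6D- SCA1low replicate 2 held a median of 10.3% of the level of 101 genes otherwise specific to LY6D- SCA1high replicate 1. This was the highest such share, but 10 of 75 donor and receiver pairs measured had more than 1%. The next was 6.23% of LY6D+ SCA1high replicate 2 in LY6D+ SCA1int replicate 2. LY6D+ SCA1high replicate 2 had the lowest total and the fewest genes. Such signs were not limited to these libraries. LY6D+ SCA1int replicate 2 was the receiver in several of the 10 pairs. Most libraries correlated more closely with a library of another population than with their own replicate. For LY6D- SCA1low replicate 2 this was 0.849 with LY6D- SCA1high replicate 1 against 0.803. Results that change without LY6D- SCA1low replicate 2 and LY6D+ SCA1high replicate 2, the pair that stood apart, are given with and without them.

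The members were abundant. They took between 1.03% and 2.75% of the counts of a library, 30 of 38 had a mean of at least 100 CPM, and 23 were among the 500 most abundant tested genes. Summed over all 38, the level was 23446 ± 1296 CPM in LY6D+ SCA1high, 23834 ± 925 in LY6D+ SCA1int and 27327 ± 5086 in LY6D+ SCA1low. In LY6D- cells it was 18877 ± 64.6 at SCA1high, 19584 ± 1318 at SCA1int and 13402 ± 615 at SCA1low. The LY6D- SCA1low population thus had the lowest sum, and both of its libraries lay below the other 10. As a percent of counts without scaling it was lowest as well, at 1.14 ± 0.154, whereas the highest was LY6D+ SCA1high at 2.60 ± 0.207 and LY6D+ SCA1low stood at 2.22 ± 0.464. The highest mean in CPM, that of LY6D+ SCA1low, rests on replicate 2 (30923 CPM), since replicate 1 (23731) lay within the range of the LY6D+ SCA1high and SCA1int libraries. The sum of the luminal markers was highest in this population, at 10338 ± 2960 CPM in LY6D- SCA1low against 860 to 4569 in the others. The mean log2(CPM + 1) of these 9 markers differed less. It was 7.69 ± 0.52 in LY6D- SCA1low and 7.26 ± 0.63 in LY6D- SCA1int, and the libraries of both overlapped. The part of the luminal markers in the low sum of LY6D- SCA1low was not tested. LY6D- SCA1low also had the lowest population mean for 22 of the 38 members and the highest for 0. Among the 30 members with at least 100 CPM it was lowest for 18 (60%), compared with 32.2% of the 1409 tested genes of that abundance. It was highest for 0 of the 30, compared with 19.2%. LY6D- SCA1high had the highest mean for 12 of the 38 members and LY6D+ SCA1low for 13. Among the 30, LY6D- SCA1high was highest for 10 (33.3%), compared with 12.2%, and lowest for 8 (26.7%), compared with 31.1%. In a bulk library, fewer cells that carry an mRNA and less of it per cell cannot be told apart.

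**Figure D1:**
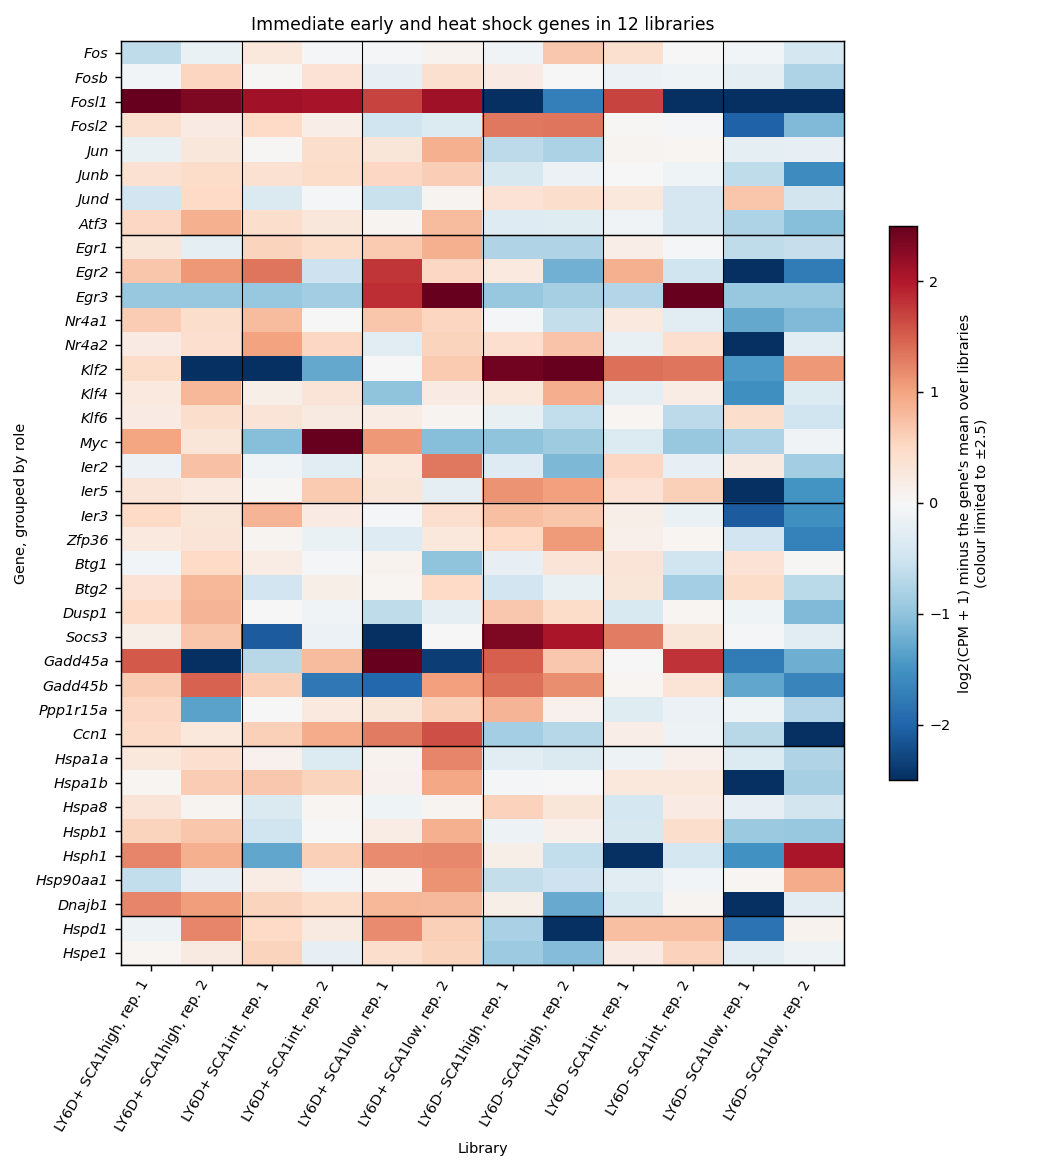
Level of each of the 38 genes in each of the 12 libraries, as log2(CPM + 1) minus the mean of that gene over the libraries, with colours limited to ±2.5; black lines separate the populations and the groups of genes by role. The 2 columns of LY6D- SCA1low at the right are blue for most genes, and Fosl1 is red in all 6 LY6D+ libraries and in 1 LY6D- library.

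Replicates of these genes were about as close as those of other genes. The median fold between both replicates of a population was 1.34 over the 38 members, 1.29 over the 30 abundant members and 1.40 over all 1409 genes at 100 CPM or more. The 29 immediate early genes accounted for most of the sum. In the order SCA1high, SCA1int, SCA1low, their sum was 19619 ± 882, 20348 ± 739 and 22362 ± 3451 CPM with LY6D and 16075 ± 222, 16218 ± 1886 and 10320 ± 1507 CPM without it. The sum of the 9 heat shock genes, in the same order, was 3827 ± 414, 3486 ± 186 and 4965 ± 1635 CPM with LY6D and 2801 ± 157, 3366 ± 568 and 3082 ± 892 CPM without it, and the libraries of both states overlapped. Summed over the same libraries, basal markers were higher in LY6D+, endothelial markers in LY6D- SCA1high and luminal markers in LY6D- SCA1low cells. The part of these markers in the sums of the members was not tested.

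**Figure D2:**
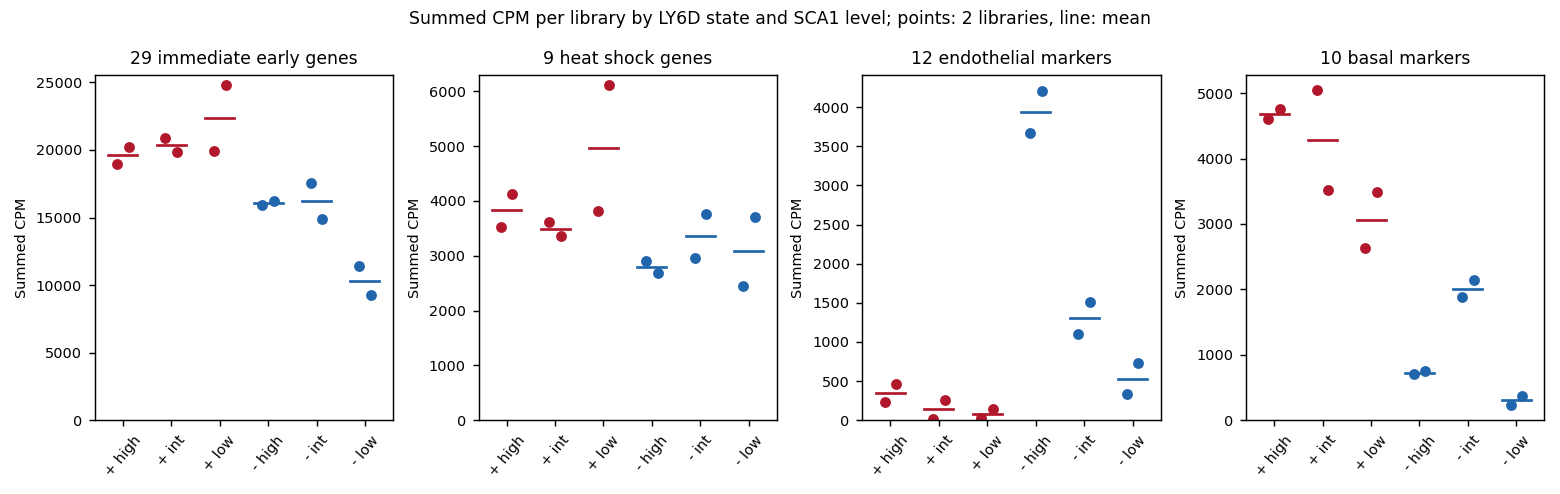
Summed CPM per library for the 29 immediate early genes, the 9 heat shock genes, the 12 endothelial markers and the 10 basal markers, by population; points are the 2 libraries, lines their mean, red LY6D+ and blue LY6D-. Immediate early sums are lowest in LY6D- SCA1low (10320 ± 1507 CPM), endothelial markers are highest in LY6D- SCA1high (3935 ± 384) and basal markers are higher in LY6D+ populations.

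The first comparison asked how LY6D+ cells differed from LY6D- cells, averaged over the 3 SCA1 levels. Of the 38 genes, 8 were higher in LY6D+ cells and 0 lower by edgeR's quasi-likelihood test at an adjusted p below 0.05. All 8 are immediate early genes: the AP-1 and ATF members Jun, Junb, Fosl1 and Atf3, the transcription factors Egr1 and Nr4a1, and Ccn1 and Ier3. Among all tested genes, 2.48% were called in this comparison and 1.27% were called higher. The median log2 fold change of the 38 genes was 0.56, against 0.03 for all tested genes, and 31 of the 38 estimates were above 0. At an unadjusted p below 0.05, 16 were higher and 2 lower, where 20.4% of all tested genes passed in either direction. The count of called genes was 12 without both libraries that stood apart and 13 without LY6D- SCA1low replicate 2 alone, which added Dnajb1, Hspa1b, Hspd1, Nr4a2 and Socs3, the last of them lower.

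**Figure D3:**
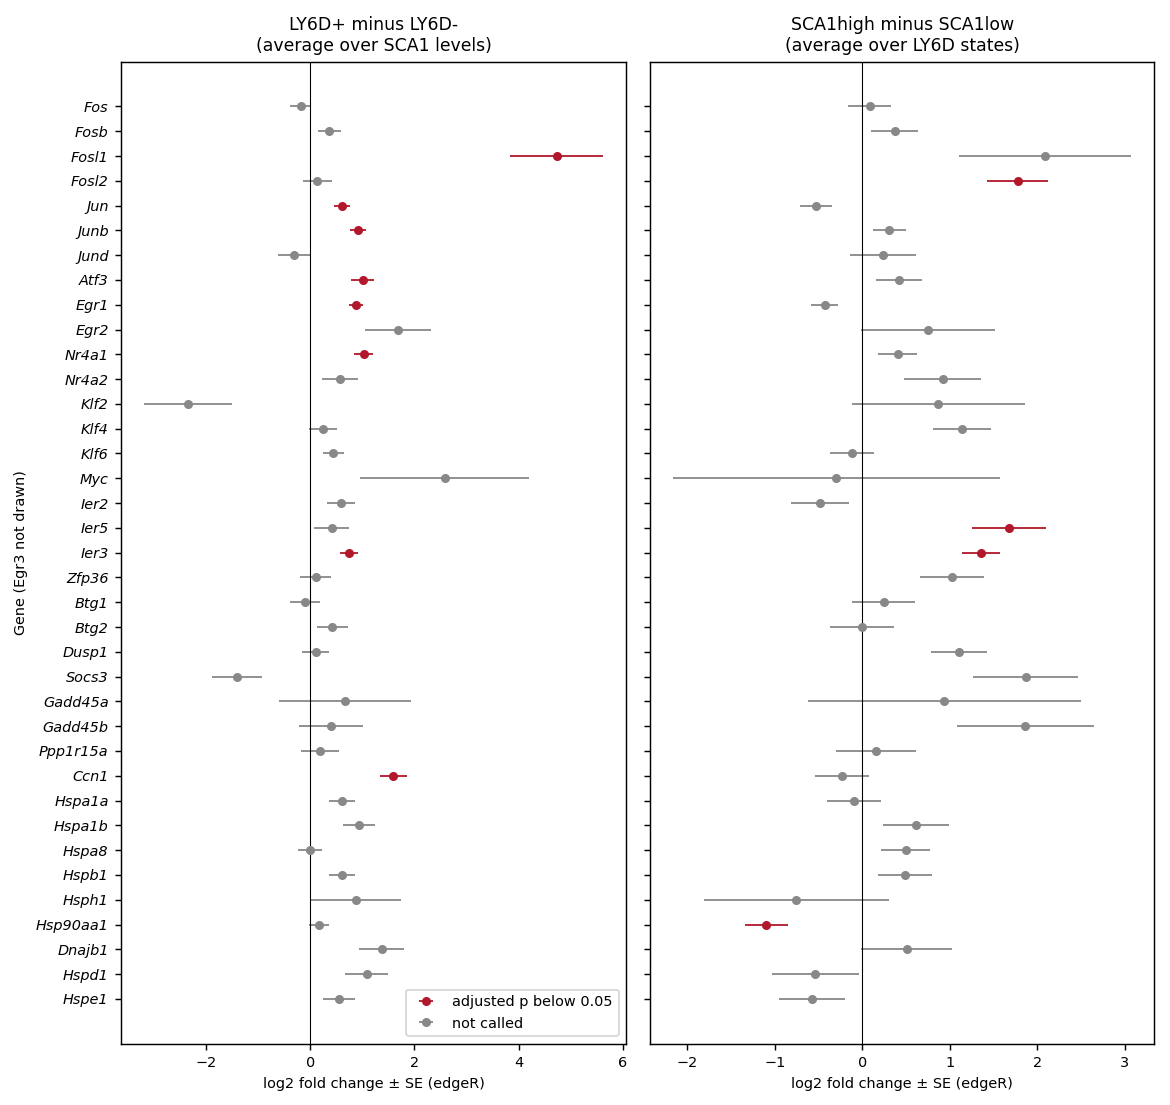
Log2 fold change ± SE of 37 of the 38 genes (Egr3, near 0 counts in most libraries, is not drawn) for LY6D+ against LY6D- and for SCA1high against SCA1low; red points passed an adjusted p of 0.05 in edgeR. The 8 red points of the LY6D comparison all lie above 0, and of the 4 red points of the SCA1 comparison Hsp90aa1 alone lies below 0.

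Among the AP-1 and ATF subunits, which pair as dimers on TGACTCA-like sites, 4 of 8 genes were higher in LY6D+ cells. Junb (chromosome 8, 84974484 to 84978718), a JUN protein often found in differentiating epithelium, stood at 2338 and 2447 CPM in the LY6D+ SCA1high libraries (replicate 1, then 2), 2343 and 2450 at SCA1int and 2564 and 2747 at SCA1low. In LY6D- cells it stood at 1358 and 1625 at SCA1high, 1807 and 1668 at SCA1int and 1147 and 604 at SCA1low. All 6 LY6D+ libraries lay above all 6 LY6D- libraries, and the lowest value was that of LY6D- SCA1low replicate 2. Junb had a log2 fold change of 0.92 ± 0.16 (SE; edgeR adjusted p = 0.000721). With DESeq2 it was 0.78 ± 0.31 and not called. Prdx2, on the other strand, overlaps Junb, and whether reads were counted by strand is not given in the sources used here.

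Fosl1 (chromosome 19, 5447547 to 5455946), the gene of the AP-1 subunit FRA-1, was high in all 6 LY6D+ libraries and in 1 LY6D- library. It stood at 121 and 91.1 CPM in LY6D+ SCA1high, 77.2 and 75.8 in LY6D+ SCA1int and 58.0 and 78.2 in LY6D+ SCA1low. In LY6D- cells it stood at 2.19 and 4.57 CPM at SCA1high, 57.9 and 1.63 at SCA1int and 0.215 and 0.346 at SCA1low. The LY6D- SCA1int replicates thus differed widely, with replicate 1 just below the lowest LY6D+ library. The log2 fold change between LY6D states was 4.73 ± 0.89 (edgeR adjusted p = 0.00208) and kept its call under all 19 alternatives tried. The lowest population held 2 and 4 counts of Fosl1.

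Atf3 (chromosome 1, 191170296 to 191218039), a stress-induced partner of JUN proteins, stood at 816 and 1055 CPM in LY6D+ SCA1high, 778 and 698 in LY6D+ SCA1int and 600 and 988 in LY6D+ SCA1low. LY6D- cells held 457 and 466 CPM at SCA1high, 537 and 428 at SCA1int and 334 and 275 at SCA1low. No LY6D- library reached the lowest LY6D+ library, and the log2 fold change was 1.0 ± 0.22 (edgeR adjusted p = 0.00934).

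Jun (chromosome 4, 95049034 to 95052222), the archetypal AP-1 subunit, stood at 1711 and 2365 CPM in LY6D+ SCA1high, 1989 and 2632 in LY6D+ SCA1int and 2398 and 3573 in LY6D+ SCA1low. In LY6D- cells the values were 1229 and 1115 at SCA1high, 2045 and 1998 at SCA1int and 1649 and 1691 at SCA1low. The groups overlapped, because the LY6D- SCA1int libraries lay within the LY6D+ range. The log2 fold change was 0.61 ± 0.15 (edgeR adjusted p = 0.0223), and the call ended without LY6D+ SCA1high replicate 2 (0.46 ± 0.16) and without LY6D+ SCA1low replicate 2 (0.51 ± 0.16). It also ended with RLE size factors and with DESeq2, both at 0.50.

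No other AP-1 gene was called for LY6D. Fos, the partner most used to mark a recent stimulus, ranged from 515 to 1279 CPM with its lowest value in a LY6D+ and its highest in a LY6D- library of SCA1high cells, and its log2 fold change was -0.19 ± 0.20. Fosb ranged from 377 to 934 CPM (0.37 ± 0.22) and Jund, which is present in most resting cells, from 185 to 443 CPM (-0.30 ± 0.31). Fosl2 (0.13 ± 0.28) is described with the SCA1 comparison, in which it was called.

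Among 11 genes of transcription factors and other nuclear proteins outside AP-1, 2 were higher in LY6D+ cells. Egr1 (chromosome 18, 34859823 to 34864984), a zinc finger factor induced through SRF, stood at 3296 and 2244 CPM in LY6D+ SCA1high, 3922 and 3689 in LY6D+ SCA1int and 4192 and 4918 in LY6D+ SCA1low. LY6D- cells held 1594 and 1588 CPM at SCA1high, 2988 and 2573 at SCA1int and 1720 and 1782 at SCA1low. LY6D+ SCA1high replicate 2 lay below both LY6D- SCA1int libraries, so the LY6D groups overlapped, but at each SCA1 level both LY6D+ libraries were above both LY6D- libraries. The log2 fold change was 0.88 ± 0.13, with an edgeR adjusted p of 8.57e-05, the smallest among the members.

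Nr4a1 (chromosome 15, 101254269 to 101274795), an orphan nuclear receptor also known as Nur77, stood at 1694 and 1481 CPM in LY6D+ SCA1high, 1888 and 1085 in LY6D+ SCA1int and 1774 and 1587 in LY6D+ SCA1low. In LY6D- cells it stood at 1060 and 727 at SCA1high, 1291 and 900.3 at SCA1int and 452 and 510 at SCA1low. The LY6D- SCA1low libraries were the lowest of the 12, and only LY6D- SCA1int replicate 1 reached into the LY6D+ range. Its log2 fold change was 1.02 ± 0.19 (edgeR adjusted p = 0.00141).

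The remaining 9 of these factors had edgeR adjusted p-values above 0.05 for LY6D. Klf2, which is strong in endothelium, stood at 0.353 to 37.0 CPM in LY6D+ libraries and 126 and 231 in LY6D- SCA1high, with a log2 fold change of -2.35 ± 0.84 (edgeR adjusted p = 0.114). It was called lower under some alternatives, among them DESeq2 and subtraction of counts carried over between libraries, and the endothelial marker sum was highest in the same LY6D- SCA1high libraries (3935 ± 384 CPM); its part in this difference was not tested. Egr2 had a log2 fold change of 1.69 ± 0.64 and was called higher by DESeq2, here and at SCA1low. Nr4a2 had a log2 fold change of 0.57 ± 0.35, Ier2 of 0.59 ± 0.27 and Klf6 of 0.44 ± 0.21. Klf4 was at 0.24 ± 0.27 and Ier5 at 0.41 ± 0.33. Myc was low, at 0.700 to 49.4 CPM with 1 high library, LY6D+ SCA1int replicate 2. Egr3 had 0 counts in 6 libraries, where 3 counts would stand for 0.135 to 0.353 CPM, and 10 or more counts in 3 libraries, at 5.90 and 12.9 CPM in LY6D+ SCA1low and 18.9 in LY6D- SCA1int replicate 2.

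Of the 10 genes for feedback, mRNA decay, growth arrest and secreted products, Ccn1 and Ier3 were higher in LY6D+ cells. Ccn1 (chromosome 3, 145646976 to 145649981), formerly Cyr61, encodes a secreted matricellular protein and is a target of SRF and YAP. It stood at 900 and 776 CPM in LY6D+ SCA1high, 972 and 1226 in LY6D+ SCA1int and 1586 and 1980 in LY6D+ SCA1low. In LY6D- cells it stood at 358 and 391 at SCA1high, 725 and 595 at SCA1int and 400 and 83.1 at SCA1low. All LY6D+ libraries lay above all LY6D- libraries, and Ccn1 had a log2 fold change of 1.59 ± 0.26 (edgeR adjusted p = 0.000369).

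Ier3 (chromosome 17, 35821684 to 35822923), also called IEX-1, encodes a small regulator of survival and ERK signalling. In LY6D+ cells it stood at 1769 and 1543 CPM at SCA1high, 2260 and 1449 at SCA1int and 1204 and 1670 at SCA1low. In LY6D- cells it stood at 2106 and 2018 at SCA1high, 1394 and 1114 at SCA1int and 294 and 430 at SCA1low. The SCA1high libraries of LY6D- cells were among the highest of all, and both SCA1low libraries of LY6D- cells were the lowest of the 12. Averaged over SCA1 levels the log2 fold change was 0.75 ± 0.17 (edgeR adjusted p = 0.0153); with RLE size factors and with DESeq2 it was 0.62 and no longer called.

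These 2 genes are shown with their upstream DNA because Ccn1 had the largest fold between LY6D states among the abundant members and Ier3 was the gene whose SCA1 difference changed with LY6D. Both come from the 250 bases before the RefSeq transcription start on GRCm38.p6, Ccn1 from the minus strand (chr3:145649986-145650235) and Ier3 from the plus strand (chr17:35821463-35821683), where the stretch stops before the GENCODE transcript. Capitals in Ccn1 mark a TTCNNGAA match and a TATAAA box, 82 to 75 and 25 to 20 bases before the start. No capitals are set in Ier3, whose 250 bases hold none of the 6 motifs searched.
Ccn1: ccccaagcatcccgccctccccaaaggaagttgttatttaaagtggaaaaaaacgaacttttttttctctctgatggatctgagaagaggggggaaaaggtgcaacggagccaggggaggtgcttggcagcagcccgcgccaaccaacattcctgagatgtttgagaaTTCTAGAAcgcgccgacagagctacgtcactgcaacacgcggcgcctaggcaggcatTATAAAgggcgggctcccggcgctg
Ier3: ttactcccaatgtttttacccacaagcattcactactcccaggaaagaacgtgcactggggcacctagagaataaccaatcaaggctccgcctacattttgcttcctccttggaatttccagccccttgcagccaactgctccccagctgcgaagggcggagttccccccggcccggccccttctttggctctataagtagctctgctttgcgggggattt

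The motifs were searched on both strands of 31 members with an entry in the RefSeq table and of all 27025 symbols there, counting a symbol once when any of its windows of that length held a match. TATAAA was found in 5 of the 31 members (Fos, Nr4a2, Btg1, Gadd45b and Ccn1) and in 14.3% of all symbols. TGACGTCA, the cyclic AMP response element, was in 3 members (Btg2, Dusp1 and Ppp1r15a) and 1.77% of symbols. The CArG box, bound by SRF, was in 2 members (Egr2 and Zfp36) and 1.62% of symbols. The AP-1 site TGACTCA was in 0 members and 5.16% of symbols. GAANNTTC and TTCNNGAA, forms of the heat shock element, are described with the heat shock genes. A match is a run of letters and not a measured binding site.

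The other 8 genes of that role had edgeR adjusted p-values above 0.05 for LY6D. Socs3, which blocks cytokine receptors that signal through JAK kinases, had a log2 fold change of -1.41 ± 0.48 (edgeR adjusted p = 0.102). It stood at 635 and 513 CPM in LY6D- SCA1high against 5.51 to 201 in the 6 LY6D+ libraries, in the population with the most endothelial marker RNA. Socs3 was called lower with no filter on low counts, with the replicate number as a block, without both libraries that stood apart, without LY6D- SCA1low replicate 1 and without replicate 2 of any 1 of LY6D+ SCA1high, LY6D+ SCA1int, LY6D+ SCA1low, LY6D- SCA1int and LY6D- SCA1low. Dusp1, a phosphatase of MAP kinases (0.11 ± 0.26), Zfp36, which destroys AU-rich mRNA (0.11 ± 0.30), and the antiproliferative genes Btg1 (-0.10 ± 0.29) and Btg2 (0.42 ± 0.30) had estimates within about 1.5 SE of 0. Gadd45a (0.68 ± 1.27), Gadd45b (0.40 ± 0.62) and Ppp1r15a (0.18 ± 0.37), which act in DNA damage and stress responses, were imprecise or close to 0.

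None of the 9 heat shock genes was called for LY6D by edgeR. At an unadjusted p below 0.05, 5 were higher and 0 lower, where 20.4% of all tested genes passed in either direction. The median log2 fold change of the 9 genes was 0.62. Dnajb1, the HSP40 partner of HSP70, came closest. It stood at 330 and 289 CPM in LY6D+ SCA1high, 206 and 194 in LY6D+ SCA1int and 251 and 249 in LY6D+ SCA1low, and in LY6D- cells at 156 and 58.1 at SCA1high, 107 and 147 at SCA1int and 14.1 and 117 at SCA1low. Every LY6D+ library lay above every LY6D- library, but the LY6D- replicates were far apart at SCA1low, and the log2 fold change was 1.37 ± 0.43 (edgeR adjusted p = 0.0797). Dnajb1 was called without LY6D- SCA1low replicate 2, without LY6D- SCA1high replicate 1, without both libraries that stood apart and with no filter on low counts.

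The inducible HSP70 genes Hspa1a and Hspa1b had log2 fold changes of 0.62 ± 0.25 and 0.94 ± 0.31 (edgeR adjusted p = 0.154 and 0.093). Their sequences are nearly the same, and how reads were split between them is not known, so neither can be read alone. Gm20481 overlaps Hspa1a on the other strand as well, as Ergic1 does Dusp1 and Tulp2 does Ppp1r15a, and without the strand setting their reads cannot be told apart. Hspa1a ranged from 260 to 1013 CPM and Hspa1b from 44.4 to 538, each highest in LY6D+ SCA1low replicate 2. Hspb1 (HSP27) had 0.61 ± 0.26, and the mitochondrial chaperonin genes Hspd1 (HSP60) and Hspe1 (HSP10) had 1.09 ± 0.41 and 0.55 ± 0.31. Hspa8, the constitutive HSC70, had -0.0015 ± 0.23, Hsp90aa1 0.17 ± 0.20 and Hsph1 (HSP110) 0.87 ± 0.87.

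The start regions of Hspa1a and Hspe1 carry heat shock element letters and are printed to show them. Hspa1a is on the minus strand (chr17:34972157-34972406), with capitals for GAAGATTC, a GAANNTTC match 104 to 97 bases before the start. In that window 247 of 250 bases equal those of Hspa1b, position by position. Hspe1 is on the plus strand and lies next to Hspd1 on the minus strand, and GENCODE transcripts of Hspd1 cover much of the stretch before it, so only the run of overlapping TTCNNGAA and GAANNTTC matches 89 to 72 bases before the Hspe1 start is given (chr1:55088059-55088076). RefSeq puts Hspd1 starts 216 bases before and 95 bases after the Hspe1 start.
Hspa1a: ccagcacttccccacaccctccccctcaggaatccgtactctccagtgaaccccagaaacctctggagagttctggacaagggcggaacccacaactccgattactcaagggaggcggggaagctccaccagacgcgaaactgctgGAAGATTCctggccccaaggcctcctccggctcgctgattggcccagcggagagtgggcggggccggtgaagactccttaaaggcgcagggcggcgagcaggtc
Hspe1: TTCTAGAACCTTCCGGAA

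GAANNTTC was found in 7 of 31 members (Fosl2, Jun, Hspa1a, Hspa1b, Hspb1, Hspd1 and Hspe1) and in 7.73% of all symbols. TTCNNGAA was in 5 members (Egr2, Ccn1, Hsph1, Hspd1 and Hspe1) and 8.11% of symbols. Both forms stood in the shared Hspd1 and Hspe1 region. This pair overlaps on opposite strands only where both genes start (Hspd1 55077835 to 55088243, Hspe1 55088132 to 55091307), while the tags come from 3' ends. A tag within the overlap could not be assigned without the strand setting.

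At each SCA1 level the LY6D comparison rests on 2 libraries against 2. At SCA1high, edgeR called 0 of the 38 genes (0.262% of all tested genes) and DESeq2 called Fosl1 (1132 of all tested genes). At an unadjusted p below 0.05 there were 14, 10 higher and 4 lower, where 11.7% of all tested genes passed. The median log2 fold change was 0.28, against -0.11 for all tested genes. Egr1 came closest at 0.80 ± 0.22 (edgeR adjusted p = 0.198), and it was called without either LY6D+ SCA1int library, without LY6D- SCA1low replicate 1 and without both libraries that stood apart. The 4 lower genes were Klf2 (-3.46 ± 1.52), Fosl2 (-1.02 ± 0.49), Socs3 (-1.76 ± 0.84) and Fos (-0.73 ± 0.35). At SCA1int, edgeR also called 0 (0.203% of all tested genes) and DESeq2 called 0 (520 of all tested genes). At an unadjusted p below 0.05 there were 2, Egr1 higher and Klf2 lower, where 6.17% of all tested genes passed. The median there was 0.21, against 0.00 for all tested genes.

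At SCA1low the LY6D+ libraries were higher for 6 of the 38 genes and lower for 0, where 0.472% of all tested genes were called and 0.38% were called higher. Ier3 had a log2 fold change of 1.99 ± 0.31 (edgeR adjusted p = 0.000587), Egr1 of 1.38 ± 0.22 (0.000996), Ccn1 of 2.89 ± 0.47 (0.00105), Junb of 1.60 ± 0.28 (0.00206) and Nr4a1 of 1.8 ± 0.33 (0.00399). Fosl1 was called as well (7.87 ± 1.79; edgeR adjusted p = 0.034). Its 1762 counts in LY6D+ SCA1low against 6 in LY6D- SCA1low give a ratio of 236 after scaling, with an exact 95% interval of 108 to 645 that covers counting error only. At an unadjusted p below 0.05, 19 members were higher and 0 lower (12% of all tested genes), and the median over the 38 was 1.10, against 0.20 for all tested genes. With RLE size factors, 3 of the 6 (Ccn1, Ier3 and Nr4a1) were called. DESeq2 called 5, without Egr1 and Junb and with Egr2, but it called 1663 of all tested genes here. Without both libraries that stood apart 9 members were called. Fosl1 lost its call without LY6D- SCA1low replicate 1 (7.36 ± 2.34) or replicate 2 (8.24 ± 2.5), while Hspa1b, Dnajb1, Ier5 and Nr4a2 were called without replicate 2. Leaving out either LY6D+ SCA1int library also gave 9, with Atf3, Hspa1b and Jun added.

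**Figure D4:**
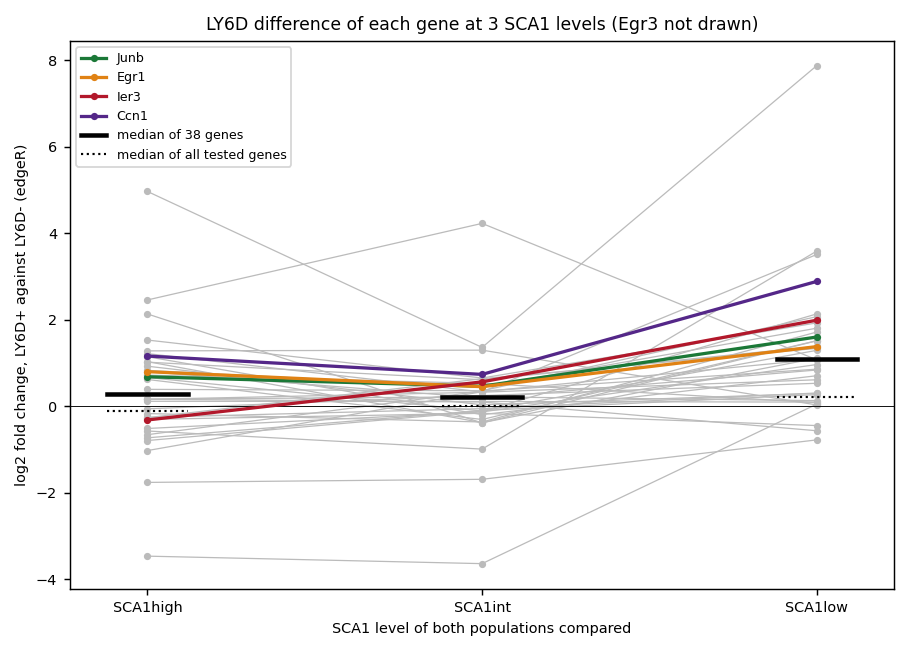
Log2 fold change of LY6D+ against LY6D- cells at SCA1high, SCA1int and SCA1low, 1 grey line per gene (Egr3 not drawn) with Junb, Egr1, Ier3 and Ccn1 in colour; the thick black marks are the median of the 38 genes and the dotted marks that of all tested genes. The members' median is 0.28, 0.21 and 1.10 from SCA1high to SCA1low, and Ier3 goes from below 0 to 1.99.

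**Figure D5:**
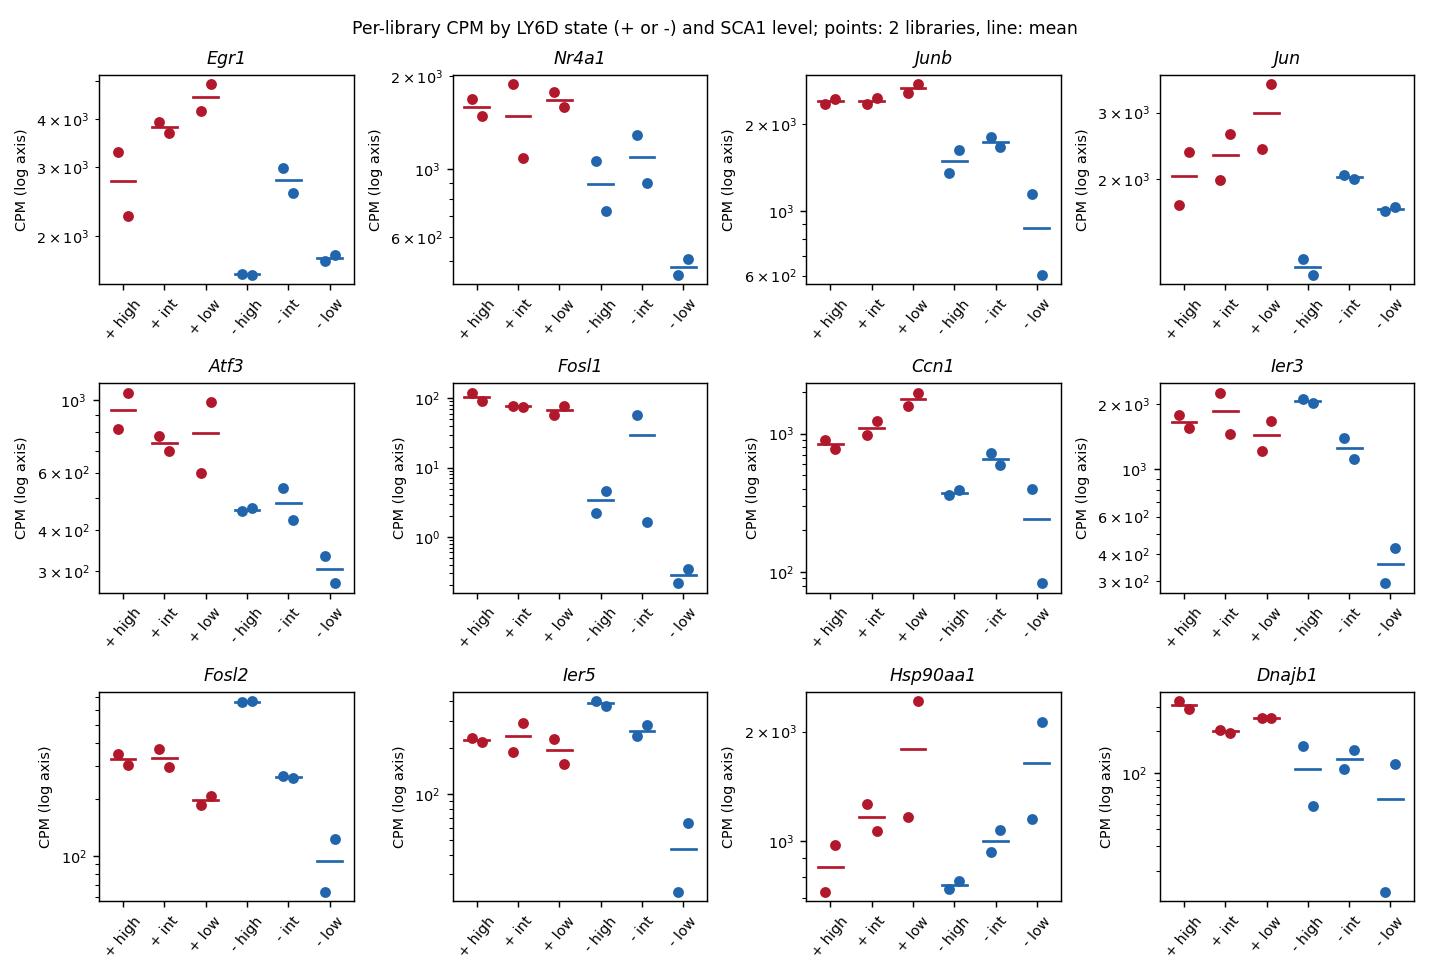
CPM per library (log axis) of 12 genes by population, with LY6D+ in red and LY6D- in blue; points are the 2 libraries and lines their mean. Junb, Atf3, Fosl1, Ccn1 and Dnajb1 show no overlap between LY6D+ and LY6D- libraries, and Ier3, Fosl2 and Ier5 fall from SCA1high to SCA1low within LY6D- cells.

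Over all 12 libraries, 5 members had every LY6D+ library above every LY6D- library (Junb, Fosl1, Atf3, Ccn1 and Dnajb1) and 0 the reverse. Of all tested genes, 0.812% had such a separation with LY6D+ higher and 0.57% with LY6D+ lower.

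The second comparison asked how SCA1high cells differed from SCA1low cells, averaged over both LY6D states. Ier3, Fosl2 and Ier5 were higher in SCA1high cells and Hsp90aa1 was lower, so 3 of 38 were called higher and 1 lower, where 1.21% of all tested genes were called, 0.432% higher and 0.779% lower. The median log2 fold change of the members was 0.39, against 0.15 for all tested genes. With library size as the only scaling, 9 were higher and 0 lower, and with RLE size factors 2 were higher and 3 lower. Those settings shifted the median of all tested genes by 0.48 and -0.27, and the members' median was 0.88 and 0.11 under them. Without LY6D- SCA1low replicate 2, 8 members were called, 5 higher and 3 lower, and without either LY6D+ SCA1int library 7 were called, 6 higher and 1 lower. Without both libraries that stood apart 6 were called.

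Fosl2 (chromosome 5, 32135801 to 32157842), the gene of the AP-1 subunit FRA-2, stood in LY6D- cells at 662 and 669 CPM at SCA1high, 268 and 260 at SCA1int and 64.2 and 123 at SCA1low. In LY6D+ cells it stood at 349 and 306 at SCA1high, 371 and 297 at SCA1int and 188 and 209 at SCA1low. All 4 SCA1high libraries lay above all 4 SCA1low libraries. Its log2 fold change was 1.78 ± 0.35 (edgeR adjusted p = 0.00407) and kept its call under all 19 alternatives.

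Ier5 (chromosome 1, 155096361 to 155099636), a nuclear protein linked to HSF1 activity, stood in LY6D- cells at 401 and 374 CPM at SCA1high, 237 and 279 at SCA1int and 23.1 and 64.7 at SCA1low. In LY6D+ cells it stood at 231 and 217 at SCA1high, 188 and 288 at SCA1int and 229 and 157 at SCA1low. LY6D+ SCA1low replicate 1 lay between both LY6D+ SCA1high libraries, so the groups overlapped. The averaged log2 fold change was 1.68 ± 0.42 (edgeR adjusted p = 0.0388). This call ended when any 1 of 8 libraries was left out, with values from 1.3 to 1.79; they were both libraries of LY6D+ SCA1high, LY6D+ SCA1low and LY6D- SCA1high, and LY6D- SCA1int replicate 2 and LY6D- SCA1low replicate 1. It also ended with RLE size factors and with no filter on low counts.

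Hsp90aa1 (chromosome 12, 110690605 to 110702728), the stress-inducible HSP90, went the other way. It stood at 727 and 974 CPM in LY6D+ SCA1high, 1268 and 1065 in LY6D+ SCA1int and 1169 and 2425 in LY6D+ SCA1low, and in LY6D- cells at 738 and 781 at SCA1high, 934 and 1071 at SCA1int and 1151 and 2129 at SCA1low. Every SCA1low library lay above every SCA1high library, with replicate 2 of each SCA1low population far above replicate 1. The log2 fold change was -1.09 ± 0.25 (edgeR adjusted p = 0.0145), and with library size as the only scaling it was -0.65 ± 0.25 and not called. The constitutive copy Hsp90ab1 differed in the same direction (-0.80 ± 0.16, edgeR adjusted p = 0.00407).

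Ier3, with the values per library given above, had a SCA1high against SCA1low log2 fold change of 1.36 ± 0.21 (edgeR adjusted p = 0.000254), called under all 19 alternatives. Among members that were not called, Dusp1 (1.11 ± 0.32, edgeR adjusted p = 0.11), Klf4 (1.14 ± 0.33, 0.114) and Socs3 (1.87 ± 0.60, 0.182) had every SCA1high library above every SCA1low library. Together with Fosl2 this made 4 of 38 members without overlap and higher in SCA1high, where 2.36% of all tested genes were, and Hsp90aa1 was the 1 member without overlap and lower (2.65%). Egr1 (-0.43 ± 0.16) and Jun (-0.53 ± 0.18) had lower estimates in SCA1high cells. Both were called so without LY6D- SCA1low replicate 1 or replicate 2, with RLE size factors and with no filter on low counts. Jun was called as well without LY6D+ SCA1high replicate 2 or LY6D+ SCA1low replicate 1. Neither was called without both libraries that stood apart.

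Within LY6D+ cells, edgeR called 0 of the 38 for SCA1 (0.327% of all tested genes) and DESeq2 called 0 (1067 of all tested genes). At an unadjusted p below 0.05 there were 6, 1 higher and 5 lower, where 8.61% of all tested genes passed. The members' median was 0.08, against -0.17 for all tested genes, and with RLE size factors it was -0.02, against -0.27. Egr1 had -0.72 ± 0.22, Ccn1 -1.09 ± 0.44, Hsp90aa1 -1.08 ± 0.35 and Jun -0.55 ± 0.26, and Dusp1 1.12 ± 0.45. The count stayed at 0 without either LY6D+ SCA1high library and without LY6D- SCA1int replicate 1, and was 1 to 3 without any other single library, most often through Egr1 and Hsp90aa1. It was 3, with Ccn1, without LY6D- SCA1low replicate 2, a library outside this contrast that shares its estimate of the spread.

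Within LY6D- cells 3 of 38 were higher in SCA1high and 0 lower, where 0.635% of all tested genes were called and 0.242% were called higher. Ier3 had a log2 fold change of 2.51 ± 0.31 (edgeR adjusted p = 1.1e-05), Fosl2 of 2.83 ± 0.51 (0.00264) and Ier5 of 3.14 ± 0.63 (0.00773). Fosl2 and Ier5 lost their calls without LY6D- SCA1low replicate 1, at 2.28 ± 0.66 and 2.42 ± 0.77. In that setting Ccn1 and Junb were called higher and Hsp90aa1 lower, and leaving out either LY6D+ SCA1int library gave 5 calls, with Socs3 higher and Hsp90aa1 lower added. Without LY6D- SCA1low replicate 2, or without both libraries that stood apart, Hspa1b, Klf4 and Nr4a2 were called as well, making 6. The median of the members was 0.77, against 0.53 for all tested genes. With RLE size factors it was 0.31, against 0.09, and with library size alone 1.33, against 1.04, so both medians depended on the scaling. The SCA1high libraries of LY6D- cells also held the most endothelial marker RNA, 3935 ± 384 CPM against 532 ± 277 in SCA1low, and the luminal markers summed to 860 ± 152 against 10338 ± 2960 CPM. The part of either in these differences was not tested.

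The test of the difference between both SCA1 contrasts called Ier3 alone among the members, as lower in LY6D+ cells, where 0.0393% of all tested genes were called and 0.0262% were called lower. The SCA1high against SCA1low change of Ier3 differed between the LY6D states, LY6D+ minus LY6D-, by -2.31 ± 0.43 on the log2 scale (edgeR adjusted p = 0.0284). In LY6D+ cells Ier3 averaged 1656 ± 160 CPM at SCA1high and 1437 ± 329 at SCA1low, and in LY6D- cells 2062 ± 62.4 and 362 ± 96.2. With RLE size factors and with DESeq2 the difference was -1.97 and not called. Ier5 (-2.93 ± 0.84) and Fosl2 (-2.11 ± 0.69) had estimates of like size with an edgeR adjusted p of 0.65. Without LY6D- SCA1low replicate 2, Ier5 and Nr4a2 were called too, and without LY6D- SCA1low replicate 1, Ccn1. In both settings more of all tested genes were called as well. The median over the 38 members was -0.76, against -0.45 for all tested genes.

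A test of any difference among the 6 populations called 8 members, where 1.54% of all tested genes were called: Egr1, Ier3, Ccn1, Junb, Nr4a1, Fosl2, Fosl1 and Jun, with edgeR adjusted p-values from 0.000147 (Egr1) to 0.0468 (Jun). RLE size factors gave 4, among 247 calls over all tested genes, and DESeq2 gave 5, among 2132. More members were called without both libraries that stood apart and without LY6D- SCA1low replicate 2 alone. In both settings more of all tested genes were called as well. The other 30 members, Fos and Hspa8 among them, did not pass, although the median of the highest over the lowest population mean was 3.07 over all 38.

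Other genes of the same pathways were read from lists of 34 early response genes, 21 upstream kinases and factors and 27 heat shock response genes that are not members. Of the 34 early response genes, 3 were higher in LY6D+ cells and 2 lower, where 2.48% of all tested genes were called. Phlda1 (1.79 ± 0.38), Errfi1 (1.81 ± 0.41), an inhibitor of the EGF receptor, and Arc (1.51 ± 0.40) were higher, and Dusp2 (-3.87 ± 0.87) and Irf1 (-1.35 ± 0.31), an interferon response factor, were lower, with edgeR adjusted p-values from 0.0078 to 0.0397. For SCA1high against SCA1low, 3 of these 34 were higher and 0 lower, where 1.21% of all tested genes were called. They were Nfkbia (1.28 ± 0.20), the inhibitor that restrains NF-kB, Irf1 (1.62 ± 0.38) and Mcl1 (1.43 ± 0.35). The same 3 were called within LY6D- cells, where 0.635% of all tested genes were called. In those cells Nfkbia stood at 3626 ± 76.0 CPM at SCA1high and 632 ± 117 at SCA1low (2.52 ± 0.29, edgeR adjusted p = 4.05e-06). Nfkbia, like Ier3, had a different SCA1 change in the LY6D states (-2.48 ± 0.39, edgeR adjusted p = 0.0131).

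The sum of these 34 genes ran differently from that of the members. It was highest in LY6D- SCA1high, at 10288 ± 125 CPM, against 3096 to 6689 in the other populations. Endothelial markers were highest in the same libraries (3935 ± 384 CPM against 84.4 to 1308 in the other populations), and their part in this sum was not tested. Of the 21 upstream genes, Srf, the factor that binds the CArG box, was higher in LY6D+ cells (1.32 ± 0.28, edgeR adjusted p = 0.00667) and 0 were lower. In the order SCA1high, SCA1int, SCA1low, Srf averaged 621 ± 40.7, 477 ± 39.9 and 501 ± 228 CPM with LY6D and 170 ± 23.8, 389 ± 190 and 143 ± 4.48 CPM without it. Of the 27 other heat shock response genes 0 were called for LY6D, and Hsp90ab1 was the 1 called for SCA1. For both lists, the share of all tested genes called was 2.48% for LY6D and 1.21% for SCA1.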

How the data were processed

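RNA of 12 libraries was made with the Lexogen QuantSeq 3' FWD kit from 10 to 20 ng of total RNA, per the labels' protocols. The authors deposited raw counts per gene as whole numbers for 48795 Ensembl identifiers. The submitters' processing notes list edgeR, Subread, featureCounts, Picard 1.96, SAMtools 1.3.1, STAR 2.5.1 and cutadapt 1.9.1, in no stated order, with the build mm10. Annotation and strand setting of the counting are not stated there. No molecular identifiers are named, so intervals cover counting error only. Identifiers without a symbol held 0.475% of counts.

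Counts were fitted in R 4.3.3 with edgeR 4.0.16 (TMM, filterByExpr, glmQLFit with a mean for each of the 6 populations, 6 residual degrees of freedom, glmQLFTest). Benjamini-Hochberg adjustment ran over all 15270 genes, and a gene is called below 0.05. The common dispersion was 1.65. The spread of each gene was moderated over all tested genes, so the tests used more than the 6 residual degrees of freedom. The SE is the log2 fold change over the root of F. The scripts were tested on simulated data.

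All 38 listed genes are accounted for, each called gene is named, and at most 3 per direction are named from other lists. The members and lists were chosen with earlier results of these data known.

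There were 19 alternatives: RLE size factors, library size alone, no filter, DESeq2 1.42.0, a replicate block, each library left out, both libraries that stood apart left out and, added after seeing the data, subtraction of counts carried over in 10 library pairs. Gene coordinates are GENCODE M21 on GRCm38, counted from 1. Promoters are RefSeq, GRCm38.p6. Promoters of Fosl1, Egr1, Egr3, Myc, Ier2, Hspa8 and Hsp90aa1 were not analysed here.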

Additional observations from a re-analysis of the deposited data

Results flagged for a closer look

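Ier3 stood out because its SCA1 difference was not the same in the LY6D states, by a test of that difference itself. From SCA1high to SCA1low, Ier3 went from 2062 ± 62.4 to 362 ± 96.2 CPM in LY6D- cells and from 1656 ± 160 to 1437 ± 329 CPM in LY6D+ cells (SD, n = 2). The difference of both log2 fold changes was -2.31 ± 0.43 (SE, edgeR adjusted p = 0.0284), and over the 19 alternatives it ran from -2.99 to -1.93, with adjusted p-values from 1.36e-06 to 0.107. The test was made once per gene over 15270 genes, of which 6 passed. Summed endothelial markers were 3935 ± 384 CPM in LY6D- SCA1high and 532 ± 277 in LY6D- SCA1low, and their part in the difference was not tested.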

How the results depend on the processing

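The direction of the 22 gene results tested under alternatives was kept in all 19 of them. Calls of members were recounted in each. Without a filter on low counts there was 1 for LY6D at SCA1high (Egr1) and 2 for SCA1 in LY6D+ cells. DESeq2 gave 1 for LY6D at SCA1high, 0 for the difference of the SCA1 contrasts and 5 for any difference. Over all tested genes its calls numbered 1132, 494 and 2132 in the same order. RLE size factors gave 3 for LY6D at SCA1low, 0 for the difference and 4 for any difference. Library size alone gave 9 for the SCA1 average and 6 in LY6D- cells. Without both libraries that stood apart there was 1 at SCA1high, 6 for SCA1 in LY6D- cells, 2 for the difference and 15 for any difference. Subtraction of carried-over counts gave 1 at SCA1int (Klf2, lower). Leaving out 1 library at a time gave 8 to 13 for the LY6D average, 0 to 1, 0 to 0 and 5 to 9 at SCA1high, SCA1int and SCA1low, 3 to 8 for the SCA1 average, 0 to 3 in LY6D+ and 3 to 6 in LY6D- cells, 1 to 3 for the difference and 8 to 16 for any difference. A lone library left in a population was taken to vary like the others. With libraries left out, calls over all tested genes changed too. They rose in every such setting for the difference and for any difference.

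Scaling moved the median log2 fold change of all genes by -0.12 (RLE, LY6D average), -0.40 (RLE, LY6D at SCA1low) and -0.44 (RLE, SCA1 in LY6D- cells), and by 0.51 with library size alone in LY6D- cells. Over all tested genes the LY6D average had 194 higher and 185 lower calls, against 106 and 190 with RLE size factors, and 862 and 1307 with DESeq2. The SCA1 average had 66 and 119, against 184 and 77 with library size alone.

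The replicate number as a block gave 9 members for the LY6D average, adding Socs3, 7 at SCA1low, adding Hspa1b, 5 for the SCA1 average, adding Klf4, and 9 for any difference. Other counts were those without the block. Same-numbered libraries of 2 populations deviated with correlations of -0.20 to 0.13 (median 0.01, 2 of 15 over 0.1). In the labels all libraries with the same number share a name prefix whose meaning is not stated, so a shared preparation is possible, and the correlations do not show one. With 2 libraries per population and the lowest total at 8436185 counts, a call that was missed does not show equal levels.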
